A study of Mus musculus with 24 samples.

Results

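The respiratory chain and the ATP synthase of mouse kidney are described here as 96 transcripts, 83 from nuclear genes and 13 from the mitochondrial genome, out of 56748 gene identifiers in the deposited table. Members were the rows whose symbol begins as the names of complex I, II, III, IV and V subunits begin (Nduf followed by a subunit letter and number, Sdha to Sdhd, Uqcr, Cyc1, Cox4 to Cox8, Atp5, and mt-Nd, mt-Co, mt-Atp and mt-Cytb). Of 111 matching rows, 12 were left out as pseudogenes by name or annotation and 3 because their mean over all libraries was under 10 normalized counts, namely Cox7b2, Cox8c and a second identifier of Atp5o. The nuclear members numbered 35 for complex I, 4 for complex II, 9 for complex III, 18 for complex IV and 17 for complex V, with Ndufa4 and Ndufa4l2 counted with complex IV. The mitochondrial ones numbered 7, 0, 1, 3 and 2 for the same complexes. The Nduf, Uqcr, Cox and Atp5 names match subunits only by symbol, and Atp5s and Cox7a2l, which have other roles in ATP synthase coupling and supercomplex assembly, came in by name.

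Oxidative phosphorylation runs in the inner mitochondrial membrane. Complexes I and II take electrons from NADH and succinate, complex III passes them to cytochrome c, complex IV gives them to oxygen, and complex V makes ATP from the proton gradient that complexes I, III and IV build. Complexes I, III, IV and V are built from proteins of both genomes, whereas complex II is wholly nuclear. The proximal tubule, which makes up much of the kidney cortex, is densely packed with mitochondria and works mostly by oxidizing fatty acids and other fuels.

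Kidneys came from male and female mice, taken midway through either the active or the inactive period, with 6 libraries each of active males, inactive males, active females and inactive females. The labels give no strain, age, genotype, clock hour or lighting, no agent other than the period, and no statement that each library is a separate animal, so p-values measure the spread between these libraries, which may in part be technical. Total RNA was poly A selected before sequencing, which in whole kidney mixes all cell types, so that fewer cells of a type and less RNA per cell cannot be told apart. Recovered reads numbered 31 to 39.3 M (mega) per library, and 17333 genes with a mean of at least 10 normalized counts were tested together. Proximal tubule markers (Slc5a2, Slc34a1, Lrp2, Cubn and Slc5a12) summed to 160210 to 228299 normalized counts per library and skeletal muscle markers (Ckm, Actn3, Myh4 and Acta1) to 10.2 to 222.5. The question was how transcripts of the respiratory chain differ between the periods within each sex and between the sexes within each period.

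The sequences that bear most on how these values can be read are those of the mitochondrial genes, because 7 of the 13 share long stretches with pseudogenes on the minus strand of chromosome 1 (24611535 to 24616197 in GRCm38 of the reference annotation). Of these 7 genes, 5 (mt-Co2, mt-Co3, mt-Atp6, mt-Nd3 and mt-Nd4l) lie in that copy over 99.0% to 99.9% of their length, mt-Nd4 over 63.6% and mt-Co1 over 31.3%. The longest match was free of mismatches for mt-Co2, mt-Co3, mt-Atp6, mt-Nd4 and mt-Nd4l, and held 1 mismatch for mt-Co1 and for mt-Nd3. The first 60 bases of mt-Co2 that match (chrM:7013-7072, plus strand) and the same bases of Gm28661 (chr1:24615506-24615565, minus strand) were the same letter for letter, and the windows around the single mismatches of mt-Nd3 (chrM:9459-9491, against Gm28438 at chr1:24613087-24613119) and of mt-Co1 (chrM:6390-6423, against Gm29216 at chr1:24616155-24616188) carry the differing base in capitals.
mt-Co2: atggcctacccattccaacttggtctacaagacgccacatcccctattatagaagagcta
Gm28661: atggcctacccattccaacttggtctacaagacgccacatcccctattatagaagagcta
mt-Nd3: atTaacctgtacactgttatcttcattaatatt
Gm28438: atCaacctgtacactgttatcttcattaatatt
mt-Co1: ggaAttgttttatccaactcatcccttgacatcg
Gm29216: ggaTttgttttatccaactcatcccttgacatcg
A short read from any of these stretches can be placed in either genome. How the authors treated reads with several placements is not stated in the sources used here.

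The mitochondrial members fell into a high and a low set. Per kilobase of transcript, the mean over 24 libraries was 1008926 normalized counts for mt-Co1 and 982784 for mt-Cytb, the core subunits of complexes IV and III. The complex I subunits mt-Nd1, mt-Nd2, mt-Nd6, mt-Nd4 and mt-Nd5 had 703831, 550060.1, 451816, 410133 and 248626 per kilobase. All of the 5 genes that lie almost whole in the chromosome 1 copy were in the low set, with 8099 per kilobase for mt-Co2, 6534 for mt-Co3, 6187 for mt-Atp6, 2604 for mt-Nd3 and 1146 for mt-Nd4l. The pseudogenes themselves were listed with mean normalized counts per kilobase between 1239 (Gm10222, the copy of mt-Nd4l) and 11144 (Gm28661, the copy of mt-Co2). The low set also held mt-Atp8 at 1762 per kilobase, which lies between mt-Co2 and mt-Atp6, overlaps mt-Atp6 and has no annotated copy of its own. Levels of the 5 genes and of mt-Atp8 are therefore uncertain, and so in part are those of mt-Nd4 and mt-Co1. As counted, the 5 genes add 12604 to 19882 normalized counts per library, so that any summed value rests almost wholly on the high set. Whether such a sum leaves out reads of the shared genes was not tested. Subunit mt-Nd6 is the one member encoded on the other strand of the mitochondrial genome, and since the strand setting is not given, its reads and those of RNA from the opposite strand cannot be told apart.

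**Figure D1:**
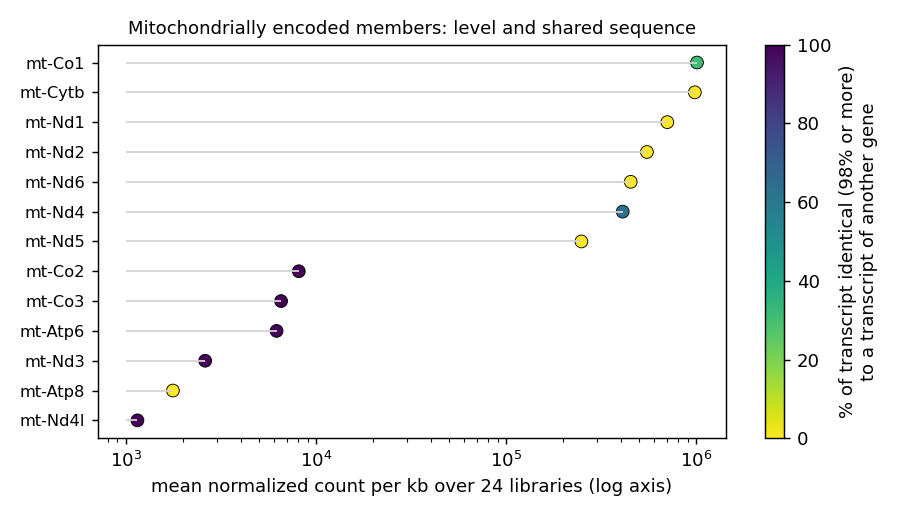
Mean normalized count per kilobase over 24 libraries (horizontal log axis) for each of the 13 mitochondrial members, colored by the percentage of the transcript at 98% identity or more with a transcript of another gene. The 5 members shared over 99.0% or more of their length and mt-Atp8 lie between 1146 and 8099, and the other 7 between 248626 and 1008926.

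Summed over the 13 mitochondrial members, active males had 4.59, 5.25 and 5.56 M normalized counts per library (lowest, median and highest of 6), against 5.11, 5.72 and 6.23 M in inactive males. Active females had 4.61, 4.89 and 5.33 M, against 4.67, 5 and 5.3 M in inactive females. The 83 nuclear members together summed to 0.648, 0.743 and 0.872 M in active males and 0.649, 0.672 and 0.709 M in inactive males, and to 0.533, 0.541 and 0.589 M in active females and 0.526, 0.538 and 0.553 M in inactive females. All 12 male libraries thus lay above all 12 female libraries in the nuclear sum, whereas the mitochondrial sums overlapped between the sexes. As a share of all signal, the nuclear members took 1.77% to 2.21% in male libraries and 1.68% to 1.82% in female libraries, and these ranges overlap. Mitochondrial members took 11.6% to 16.3% in males and 15.3% to 17.2% in females, as counted, with the low set uncertain.

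**Figure D2:**
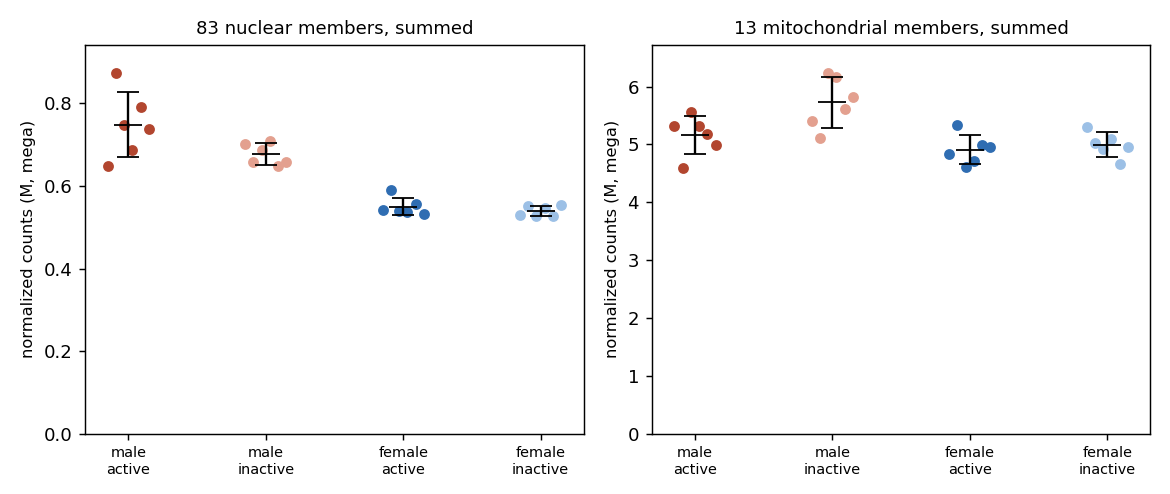
Summed normalized counts of the 83 nuclear members (left, in M) and of the 13 mitochondrial members (right, in M) per library, with points for libraries and bars for the mean ± SD of 6. Nuclear sums reach 0.872 M in active males and at most 0.589 M in the female groups, while mitochondrial sums overlap between all groups.

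Among nuclear members the level per kilobase of exon ran from 29.7 to 19715 normalized counts. The highest were the alpha and beta subunits of the ATP synthase head, Atp5a1 (19715 per kilobase) and Atp5b (18622), followed by the complex IV subunit Cox6b1 (16409). The lowest 4 were Cox4i2 (29.7), Cox6a2 (48.0), Cox8b (82.0) and Ndufa4l2 (87.4), all tissue-restricted or stress-linked forms of complex IV. Complex II was even, from 3296 for Sdhc, a membrane anchor, to 6265 for Sdhd, the other anchor. Within groups the spread was small for most members, with a median SD of 0.12 on the log2 scale over the 96 members, and it was over 0.6 for Cox4i2, Cox6a2 and Cox8b.

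One property of the libraries moved with the nuclear members. These have short transcripts, with a median summed exon length of 1569 bases against 4418 for 14256 other tested protein-coding genes, and 62 of 83 (74.7%) fall in the shortest of 5 equal length classes of those genes (up to 2489 bases). For each library an index was taken as the median log2 deviation of the other genes in the shortest class minus that of those in the longest class (7562 bases and over). It ran from 0.07 to 0.51 in active males (median 0.23), from 0.03 to 0.18 in inactive males (0.12), from -0.26 to -0.14 in active females (-0.19) and from -0.19 to -0.09 in inactive females (-0.14). The median deviation of the 83 nuclear members followed it, with 0.07 to 0.57 in active males, 0.04 to 0.18 in inactive males, -0.25 to -0.07 in active females and -0.24 to -0.15 in inactive females. Replicate 2 of the active males was highest in both. The male and female ranges of the index do not overlap, so sex and this property of the libraries cannot be told apart. Adding the index as a covariate, a choice made after seeing the data, gives the second values below. The shares of all genes called are from the fit without the index. Those with the index are not given, so counts called with it have no background beside them.

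**Figure D3:**
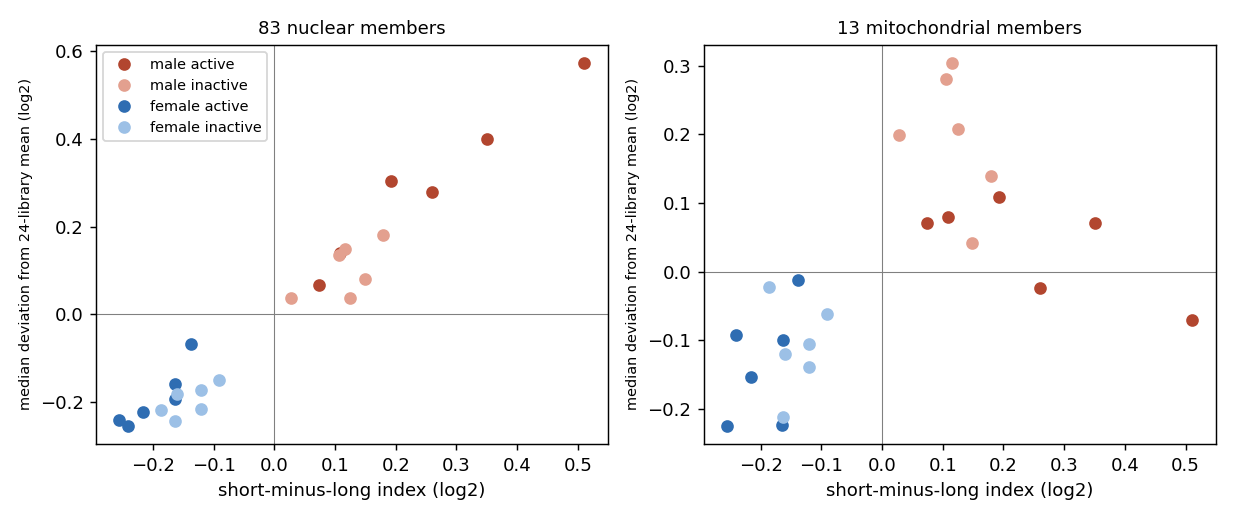
Median log2 deviation of the nuclear (left) and mitochondrial members (right) from their 24-library mean, against the short-minus-long index of other protein-coding genes, with 1 point per library. Nuclear members rise with the index, up to 0.57 at an index of 0.51 in replicate 2 of the active males, whereas the mitochondrial members of active males are lower (median 0.07) than those of inactive males (0.20) at a higher index.

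In males, 35 of the 83 nuclear members were higher in the active period and 0 were lower at an adjusted p under 0.05 from limma, and the same test called 8.43% of all genes higher and 6.95% lower. The median log2 fold of the nuclear members was 0.17, against 0.02 over all genes tested. Of all called genes, 54.8% were higher, or 33.2% to 56.4% under other scalings, and the nuclear members called higher numbered 24 to 38. Complex I gave 18 of 35, complex II 0 of 4, complex III 5 of 9, complex IV 5 of 18 and complex V 7 of 17. Not one of the 35 had active and inactive groups without overlap, where 2.28% of all genes were separated upwards and 2.01% downwards. Mitochondrial members went the other way, with 0 of 13 higher and 6 lower, and a median log2 fold of -0.15. With the index as covariate 2 nuclear members remained of the 35, Cyc1 and Ndufa8, and 2 mitochondrial members were lower, mt-Nd6 (log2 fold -0.18) and mt-Co2 (-0.16).

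Complex I takes electrons from NADH. Ndufa8, an accessory subunit of its membrane arm, had 3849.9, 4726 and 5788 normalized counts in active males (lowest, median and highest, as throughout), against 3605, 3905 and 4323 in inactive males. The groups overlapped at the lower end of the active libraries, and the log2 fold was 0.29 ± 0.06 (SE), adjusted p = 0.00263. With the index as covariate it was 0.13 ± 0.04 (adjusted p = 0.0488). Ndufa11, an accessory subunit that helps hold the membrane arm together, had 793, 995 and 1452 in active and 580.3, 749.5 and 921 in inactive males (log2 fold 0.45 ± 0.11 (SE), adjusted p = 0.00532). Ndufa5, an accessory subunit of the arm that faces the matrix, had 3317, 3892 and 4987 and 2884, 3160.2 and 3498 (log2 fold 0.31 ± 0.07 (SE), adjusted p = 0.00489). Among nuclear core subunits, the iron-sulfur subunits Ndufs7 (log2 fold 0.32) and Ndufs8 (0.25) and the flavoprotein Ndufv2 (0.16) were called, and Ndufv1, Ndufs1 and Ndufs3 were not. Ndufv1, the NADH-binding subunit, had 9119, 10325 and 12073 in active and 8796, 9303 and 9852 in inactive males (log2 fold 0.15 ± 0.05 (SE), adjusted p = 0.0515), and Ndufs1, the largest iron-sulfur subunit, had a log2 fold of -0.04.

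Among the 4 subunits of complex II, which oxidizes succinate, none passed the test for the period in males. Sdhd had 8220.3, 9293 and 10072 in active and 8082, 8325 and 9146 in inactive males (log2 fold 0.12 ± 0.05 (SE), adjusted p = 0.0845), and Sdhc, the other anchor, had 11485, 12627 and 14128 and 10959, 11715 and 12244 (log2 fold 0.12 ± 0.05 (SE), adjusted p = 0.103). The log2 fold of the catalytic subunit Sdha was 0.00.

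In complex III, Cyc1, the heme subunit that hands electrons to cytochrome c, had 7678, 9189.6 and 11137 in active males and 7131, 7566 and 7843 in inactive males. One active library lay within the inactive range, and the log2 fold was 0.28 ± 0.06 (SE), adjusted p = 0.00211, or 0.14 ± 0.04 with the index as covariate (adjusted p = 0.0435). Uqcr11, the smallest accessory subunit, had 2971, 3717 and 4988 and 2676, 2865 and 3271 (log2 fold 0.35 ± 0.09 (SE), adjusted p = 0.0105). The core subunit Uqcrc2 had 12242, 12895 and 13499 in active and 12201, 12783 and 13605 in inactive males (log2 fold 0.00 ± 0.04 (SE), adjusted p = 0.973).

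In complex IV the calls for the period in males were Cox5b, Cox7a1, Cox7a2, Cox8a and Ndufa4l2. Cox8a, the common form of subunit VIII, had 5507, 6828 and 8595 in active and 5220.4, 5594 and 6916 in inactive males (log2 fold 0.24 ± 0.08 (SE), adjusted p = 0.0418). Ndufa4l2, a hypoxia-inducible relative of Ndufa4, had 73.99, 92.95 and 143 and 41.4, 67.3 and 83.2 (log2 fold 0.56 ± 0.20 (SE), adjusted p = 0.0489). Cox7a1, the heart and muscle form of subunit VIIa, had 192, 249 and 279 and 152, 189.8 and 231 (log2 fold 0.38 ± 0.11 (SE), adjusted p = 0.0192). Leaving out 1 library at a time, the call was lost in 19 of 24 fits for Cox7a2, in 14 for Ndufa4l2 and in 8 for Cox8a. For Cox7a1 it was lost in 2 of 24, those without replicate 2 of the active males and without replicate 3 of the inactive males. Smooth muscle and pericyte markers, from cells in which Ndufa4l2 is also found, summed to 6400 to 7270.1 in active and 5813 to 6840.1 in inactive males, and their part in the result was not tested.

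In complex V all 3 genes for the c subunit, which forms the rotating ring, were called in males. Atp5g1 had 4007, 4959 and 6294 in active and 3478, 3940.1 and 4619 in inactive males (log2 fold 0.35 ± 0.08 (SE), adjusted p = 0.0036), Atp5g2 had 1904, 2368 and 2727 and 1881, 1952 and 2067 (0.25 ± 0.07 (SE), adjusted p = 0.0126), and Atp5g3 had 17339, 20001 and 22538 and 16306, 17269 and 18819 (0.20 ± 0.05 (SE), adjusted p = 0.0103). Of these transcripts, 10.5%, 26.8% and 0% of the length is shared with another gene in the annotation. Atp5d and Atp5e, the delta and epsilon subunits of the central stalk, had log2 folds of 0.34 ± 0.08 (SE), adjusted p = 0.00508 and 0.36 ± 0.10 (SE), adjusted p = 0.0133. The catalytic beta subunit Atp5b, the more abundant, had 82422, 93674 and 105864 in active and 85920, 87133 and 94060.4 in inactive males (log2 fold 0.10 ± 0.05 (SE), adjusted p = 0.166).

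The mitochondrial members lower in active males were mt-Nd2, mt-Nd4l, mt-Nd5, mt-Nd6, mt-Atp6 and mt-Atp8. Active males had 367514, 455119 and 485536 normalized counts of mt-Nd5, against 470537, 532460.1 and 581216 in inactive males (log2 fold -0.24 ± 0.07 (SE), adjusted p = 0.011), with 3 active libraries below all inactive ones and the other 3 inside their range. Of mt-Nd6, active males had 242649, 251262 and 262687, against 260952, 284042 and 300534 (log2 fold -0.17 ± 0.05 (SE), adjusted p = 0.0187). The largest changes were in the uncertain short genes, with 168, 267 and 315 against 282, 377 and 451 for mt-Nd4l (log2 fold -0.48 ± 0.13 (SE), adjusted p = 0.0109) and 200.5, 304 and 333 against 307, 412 and 471 for mt-Atp8 (log2 fold -0.45 ± 0.12 (SE), adjusted p = 0.0102). Most abundant was mt-Co1, whose fold did not pass (log2 fold -0.15 ± 0.06 (SE), adjusted p = 0.0971). Leaving out replicate 4 of the inactive males left 3 of the 6 calls. Over 24 fits that each left out 1 library, the call was lost in 14 for mt-Nd2, 7 for mt-Atp6 and 1 for mt-Nd6. For mt-Nd4l, mt-Nd5 and mt-Atp8 it was lost in 0. The mitochondrial ribosomal RNAs, transcribed from the same genome, moved the opposite way: mt-Rnr1 and mt-Rnr2 were higher in active males (log2 folds 0.41 and 0.59) and in active females (0.61 and 0.71), all 4 called, though poly A selection captures these RNAs only in part.

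In females the period gave 0 calls in either direction among 83 nuclear and 13 mitochondrial members with limma, edgeR and DESeq2, although limma called 7.97% of all genes higher and 6.98% lower. At an unadjusted p under 0.05 there were 5 nuclear members, all lower in active females, and 0 mitochondrial ones. No member had active and inactive groups without overlap, beside 4.4% of all genes separated upwards and 3.43% downwards. The median log2 folds were 0.01 and -0.04. Ndufc2 had 2442, 2667 and 3028 in active and 2715, 2950.1 and 3076 in inactive females (log2 fold -0.13 ± 0.06 (SE), adjusted p = 0.0996), and Ndufb3 had 2733, 2915 and 3198 and 3088, 3237 and 3484 (log2 fold -0.13 ± 0.06 (SE), adjusted p = 0.159). Both are accessory subunits of the membrane arm of complex I. Sdhb, the iron-sulfur subunit of complex II, had 8574, 8874 and 9984 and 9169, 9815 and 9992 (log2 fold -0.11 ± 0.06 (SE), adjusted p = 0.232). With the index as covariate 11 nuclear members were called, all higher in active females, among them Ndufa8 (0.12), Uqcrh (0.14) and Atp5k (0.18), so neither the count of 0 nor a direction holds under that choice. The share of all genes called with the index is not given here, so whether 11 exceeds it cannot be read. Cycs, cytochrome c, the carrier between complexes III and IV, was called in both sexes, with 14839.7, 16545 and 18636 in active and 13536, 13893 and 15278 in inactive males (log2 fold 0.22 ± 0.06 (SE), adjusted p = 0.00781) and 7703, 8444 and 9219.7 in active and 6599, 7046 and 7573 in inactive females, which did not overlap (log2 fold 0.26 ± 0.06 (SE), adjusted p = 0.00155).

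**Figure D4:**
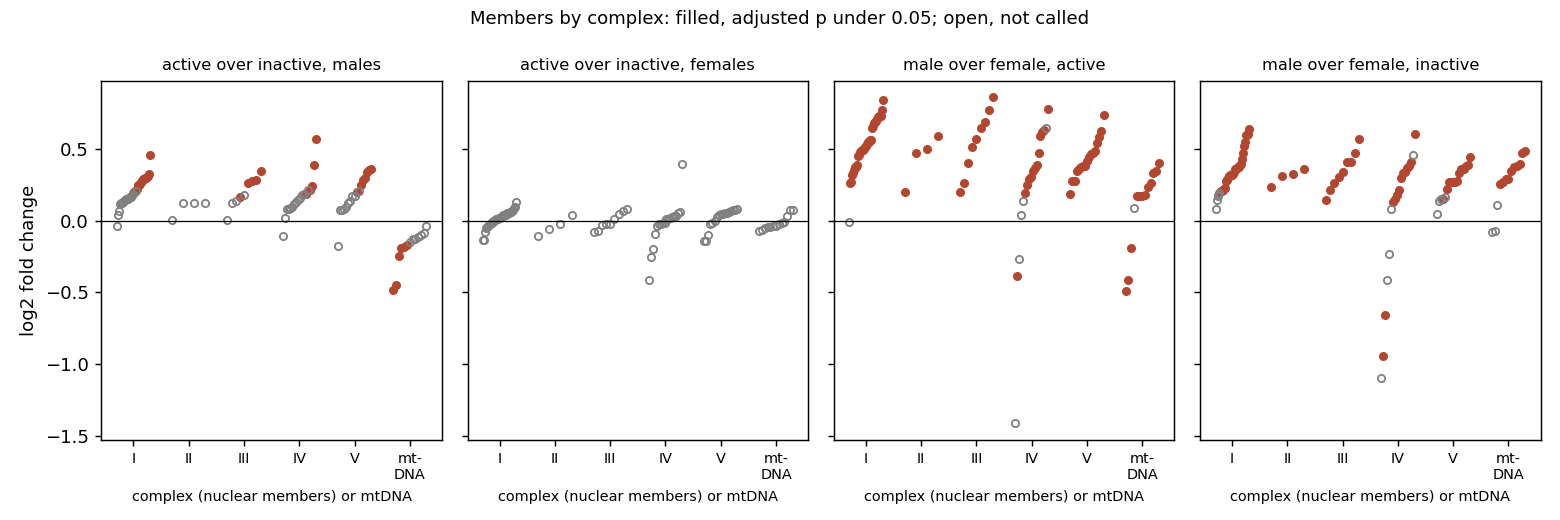
Log2 fold changes of the nuclear members by complex and of the mitochondrial members (mtDNA), with filled points for an adjusted p under 0.05 and open points for members not called. In males 35 nuclear members are higher in the active period and 6 mitochondrial ones lower, in females none is called, and in the sex comparisons 76 and 67 nuclear members are higher in males, falling to 52 and 16 when libraries are scaled to equal totals.

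The difference between the period changes, male minus female, was tested directly. It was called for 3 nuclear members, all with the larger change in males, and for 0 mitochondrial members with limma (4 at an unadjusted p under 0.05, 0 with edgeR and 1 with DESeq2), beside 1.41% of all genes higher and 1.3% lower. Cyc1 had a log2 fold of 0.28 in males and -0.07 in females, a difference of 0.35 ± 0.09 (SE), adjusted p = 0.0223. Its female values were 5384, 5808 and 5957 in active and 5655, 5973 and 6546 in inactive kidneys. Atp5g2 differed by 0.39 ± 0.10 (SE), adjusted p = 0.0228, with 1451, 1636 and 1704 in active and 1700.3, 1741 and 1936 in inactive females. Ndufc2 differed by 0.29 ± 0.08 (SE), adjusted p = 0.0388, with 3769, 4215 and 4803 in active and 3703, 3798 and 3947 in inactive males, and in neither sex alone did it pass the test. That last call was lost in 13 of 24 fits that left out 1 library, and those of Cyc1 and Atp5g2 in 0 of 24. With the index as covariate the 3 differences were 0.16 (adjusted p = 0.29), 0.17 (adjusted p = 0.33) and 0.13 (adjusted p = 0.419), and 0 nuclear members were called. The other members with the largest differences, Ndufa4l2 at 0.98 and Ndufa11 at 0.53, did not pass with limma (adjusted p = 0.0503 and 0.0532). Both were called by edgeR, by DESeq2 and by limma with equal totals. For Ndufa4l2 the adjusted p was 0.047 with edgeR, 0.0169 with DESeq2 and 0.0493 with equal totals. With the index as covariate neither was called (adjusted p = 0.396 and 0.56, limma).

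**Figure D5:**
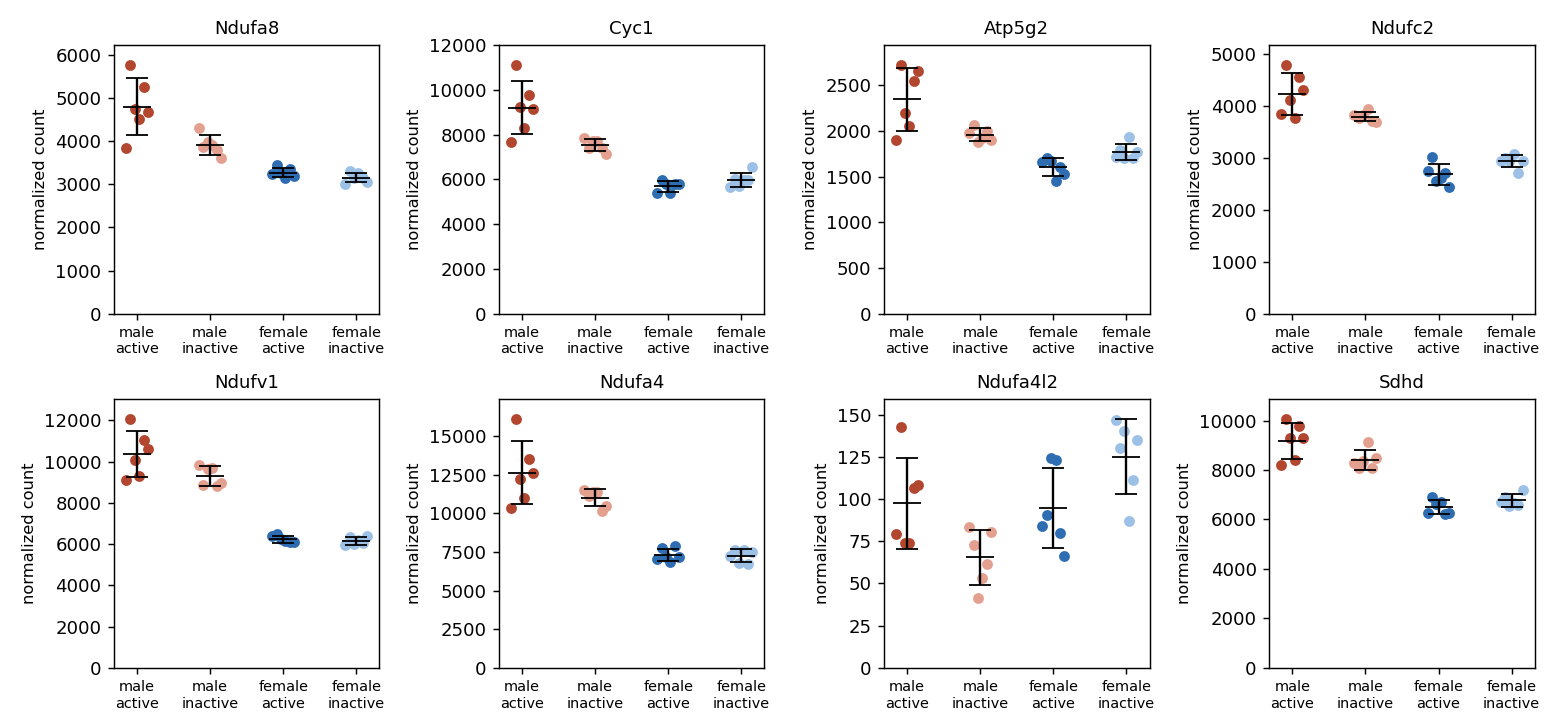
Normalized counts per library of 8 members (points), with the mean ± SD of 6 libraries (bars), in active males, inactive males, active females and inactive females. Cyc1, Atp5g2 and Ndufc2 are the members whose period change differed between the sexes with limma, and Ndufa4l2 is lower in inactive males (median 67.3) than in inactive females (132.7).

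Each library was also left out in turn. The count for the period in males of 35 became 18 without replicate 2 of the active males, 19 without replicate 5 of the active males, 21 without replicate 5 or replicate 6 of the inactive males, and 63 without replicate 1 of the active males. Those 18 were all among the 35. The 3 differences between the sexes became 2 (Cyc1 and Atp5g2) without replicate 2 of the active males, 18 without replicate 1 and 11 without replicate 4 of the active males, and 8 without replicate 1 and 5 without replicate 2 of the inactive males. Of the 35 members called, 32 are in the shortest length class, as are 30 of the 48 that were not.

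Between the sexes the nuclear members were mostly higher in males: 76 of 83 higher and 1 lower in the active period, and 67 higher and 2 lower in the inactive period, but 52 and 4, and 16 and 10, when libraries were scaled to equal totals. Of all genes called, 49.7% and 50.1% were higher in males, against 23.0% and 18.5% under equal totals. The same tests called 30.1% of all genes higher and 30.5% lower in the active period, and 27.9% and 27.8% in the inactive one. The median log2 folds of the nuclear members were 0.47 and 0.31, against -0.05 and -0.04 over all genes. Scaling to equal totals moved the median of all genes to -0.32 in both periods. A scaling moves all genes of a library alike, so the distance of the nuclear members from that median, 0.52 and 0.35, is fixed by construction. Male and female libraries did not overlap for 63 members in the active and 54 in the inactive period, beside 20.2% and 18.6% of all genes higher in males and separated, and 16.1% and 13.7% lower and separated. With the index as covariate the counts were 10 higher and 3 lower in the active, and 21 higher and 11 lower in the inactive period.

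Markers of cell types also differed by sex. Over all genes, 30.1% were called higher and 30.5% lower in active males, and 27.9% and 27.8% in inactive males. Called lower in active males than in active females were 4 of 5 proximal tubule markers (median log2 fold -0.21, with 1 higher), 4 of 4 intercalated cell markers (-0.61), 4 of 4 podocyte markers (-0.93), 5 of 5 endothelial markers (-0.77), 3 of 4 of the thick ascending limb (with 1 higher) and 2 of 3 of the distal convoluted tubule. In the inactive period the lower calls in males numbered 4, 3, 4, 5, 1 and 2 for the same lists. Of 3 principal cell markers 2 were higher and 1 lower in active males, and 0 and 1 in inactive males. Of 4 macrophage markers 1 was higher and 1 lower, and then 0 and 3. Smooth muscle and pericyte markers had 3 and 4 of 5 lower. No adipocyte or erythroid marker was called. The 5 proximal tubule markers nevertheless summed to 206367, 213903 and 228299 normalized counts in active males and 160210, 199384 and 203635 in active females, without overlap. With the deposited size factors the sum and most single markers thus went opposite ways in the active period. Total normalized counts were also larger in active males (36.09 to 39.52 M) than in active females (29.89 to 32.41 M). In the inactive period the sums overlapped, at 198904 to 210232 in males and 186702 to 210259 in females. Podocyte markers summed to 7634 to 9133 in active males and 14548 to 15793 in active females. The part of cell makeup in the values of the members was not tested.

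Every complex took part. Complex I had 34 of 35 members higher in active males than in active females, complex II 4 of 4, complex III 9 of 9, complex IV 12 of 18 and complex V 17 of 17. In the inactive period the counts were 30, 4, 9, 11 and 13, and these counts, too, are with the deposited size factors. Ndufv1 had 9119, 10325 and 12073 in active males and 6083, 6194 and 6502 in active females (log2 fold 0.72 ± 0.05 (SE), adjusted p = 7.44e-13), and 8796, 9303 and 9852 in inactive males and 5941, 6134 and 6394 in inactive females (log2 fold 0.59 ± 0.05 (SE), adjusted p = 7.87e-11). Ndufa10, an accessory subunit of the membrane arm, had 9028, 9228 and 10006 in inactive males and 5848, 6174 and 6440 in inactive females (log2 fold 0.60 ± 0.06 (SE), adjusted p = 3.89e-10). With the index as covariate the log2 folds were 0.35 and 0.38 for Ndufv1 and 0.24 and 0.34 for Ndufa10 in the active and inactive period. Because the index does not overlap between the sexes, these values cannot separate sex from it.

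Complex II was separated by sex throughout. Sdhd had 8220.3, 9293 and 10072 in active males and 6203, 6442 and 6913 in active females (log2 fold 0.49 ± 0.05 (SE), adjusted p = 4.63e-10), with 0.31 in the inactive period. Sdhb had 11514, 13581 and 16204 and 8574, 8874 and 9984 in the active period (log2 fold 0.58 ± 0.06 (SE), adjusted p = 3.62e-10). In complex III, Uqcrfs1, the Rieske iron-sulfur subunit, had 12366, 14159 and 15297 in active males and 9526, 9729 and 10577 in active females (log2 fold 0.51 ± 0.05 (SE), adjusted p = 2.04e-10), Cyc1 had a log2 fold of 0.69 and the core subunit Uqcrc1 of 0.56. Uqcrc2 differed least of the complex III members named here, at 0.20 in the active and 0.26 in the inactive period, and turned to -0.08 and -0.02 under equal totals.

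In complex IV, Ndufa4, a subunit of complex IV despite its name, had 10346, 12412 and 16119 in active males and 6836, 7147 and 7853 in active females (log2 fold 0.78 ± 0.07 (SE), adjusted p = 8.58e-11). Cox4i1 (log2 fold 0.34), Cox6a1 (0.63), Cox6b1 (0.47), Cox7a2 (0.59), Cox7c (0.39), Cox7b (0.19) and Cox8a (0.62), the forms found in most tissues, were called higher in active males. Cox7a2l, a factor for complex III and IV supercomplexes, was also called (0.24), but Cox7b and Cox7a2l turned below 0 under equal totals. With the index as covariate all of these common forms and Cox7a2l lay below 0, from -0.006 for Cox8a to -0.26 for Cox7b. Of them only Cox7b was then called, lower in active males (adjusted p = 0.0143, limma). Ndufa4 stayed above 0 at 0.19, without a call. Of the 6 tested restricted forms, Cox6b2 was called lower in males in both periods and Ndufa4l2 in the inactive one. With the deposited size factors Cox4i2, Cox6a2, Cox7a1 and Cox8b were not called by limma. Cox6b2, known from testis, had 97.4, 146 and 195 in inactive males and 189.8, 225 and 271 in inactive females (log2 fold -0.66 ± 0.16 (SE), adjusted p = 0.000631), and -0.38 in the active period. Ndufa4l2 had 41.4, 67.3 and 83.2 in inactive males and 86.9, 133 and 147 in inactive females, which did not overlap (log2 fold -0.94 ± 0.20 (SE), adjusted p = 0.000155), yet 0.04 in the active period, where the groups overlapped.

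Markers of other cell types also differed by sex. Smooth muscle and pericyte markers summed to 5813 to 6840.1 in inactive males and 8226 to 10433 in inactive females, endothelial markers to 6179 to 10274 and 10702 to 15239, and 4 of 5 and 5 of 5 of them were lower in inactive males. In the active period they summed to 6400 to 7270.1 in males and 8312 to 10811 in females, and to 8669 to 11052 and 12848 to 16786. There 3 of 5 and 5 of 5 were lower in males, while Ndufa4l2 was not called. Their part in the result for Ndufa4l2 was not tested. Cox4i2, a form known from lung, had 4.55, 24.6 and 32.8, 11.5, 20.4 and 31.9, 15.7, 24.03 and 28.4 and 14.7, 27.3 and 44.5 in active males, inactive males, active females and inactive females, without a call by limma, edgeR or DESeq2. The muscle form Cox6a2 had 12.5, 39.3 and 92.9 in active males and 11.00, 26.9 and 36.2 in active females (log2 fold 0.65 ± 0.36 (SE), adjusted p = 0.119 with limma), and was called higher in males by edgeR (adjusted p = 0.0474) and DESeq2 (adjusted p = 0.0381). Cox7a1 had a log2 fold of 0.14 in the active and -0.23 in the inactive period, without a call by limma on the deposited scale. In inactive males Cox7a1 was called lower by limma with equal totals (-0.51, adjusted p = 0.000197). With the index as covariate it was also called lower there (-0.45, adjusted p = 0.026, limma). Cox8b was not called by limma, edgeR or DESeq2, but was lower in active males with equal totals outside the mitochondrial genome (adjusted p = 0.0479, limma), with 0, 25.7 and 65.9 in active males and 25.3, 44.5 and 52.98 in active females. Adipocyte markers (Ucp1, Adipoq, Plin1 and Cidea) summed to 35.4 to 1293 per library and their part in the values of Cox8b, known also from brown fat, was not tested. Cox7b2 and Cox8c, the testis forms, had at most 4.04 and 1.83 normalized counts in any library.

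In complex V, Atp5b had 82422, 93674 and 105864 in active males and 64614, 67857 and 72788 in active females (log2 fold 0.47 ± 0.05 (SE), adjusted p = 9.38e-10), and 0.44 in the inactive period. Atp5f1, the peripheral stalk subunit b, had 22749, 23969 and 26053 in inactive males and 17729.7, 18447 and 19688 in inactive females (log2 fold 0.39 ± 0.05 (SE), adjusted p = 7.05e-08). The c subunit genes parted by period. Atp5g3 was called in both, at 0.49 and 0.33, while Atp5g1 and Atp5g2 passed in the active period only (0.36 and 0.54, against 0.05 and 0.15). With the index as covariate Atp5g1 turned to -0.27 and -0.31, and was called lower in inactive males (adjusted p = 0.000715, limma). Under equal totals, too, Atp5g1 was called lower in inactive males. For Atp5g2 the change between periods differed by the direct test given above, and for Atp5g1 it did not pass (adjusted p = 0.116). Atp5s, which is not a subunit but a coupling factor, was called at 0.19 and 0.22, and turned to -0.09 and -0.06 under equal totals.

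Of the mitochondrial members, 9 were higher and 3 lower in active males than in active females, and 10 higher and 0 lower in the inactive period, but 1 and 6, and 2 and 2, under equal totals. Over all genes, 30.1% were called higher and 30.5% lower in the active period, and 27.9% and 27.8% in the inactive one. Under equal totals 2635 higher and 8821 lower were called of all 17333 genes, and 2051 and 9054. The mitochondrial members stand beside these shares and counts. The median log2 folds of the mitochondrial members were 0.17 and 0.29 with the deposited size factors. Of the 7 members of the high set mt-Nd6 had the largest folds, with 242649, 251262 and 262687 in active males and 181645, 197961 and 214581 in active females (log2 fold 0.35 ± 0.05 (SE), adjusted p = 4.28e-07), and 260952, 284042 and 300534 and 191988, 201815 and 228229 in the inactive period (log2 fold 0.47 ± 0.05 (SE), adjusted p = 2.21e-09). Its groups did not overlap in either period. Among the others of the high set, mt-Cytb had 1143250.1, 1265751 and 1358247 in inactive males and 952387, 1060861 and 1079402 in inactive females (log2 fold 0.27 ± 0.05 (SE), adjusted p = 9.42e-05), but -0.10 and -0.01 in the active and inactive period under equal totals.

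The most abundant member of all went the other way in the active period. Active males had 1162844, 1449567 and 1521906 normalized counts of mt-Co1, against 1500370, 1598425 and 1750298 in active females (log2 fold -0.19 ± 0.06 (SE), adjusted p = 0.00932), with 3 male libraries below all female ones and the other 3 inside their range. In the inactive period the log2 fold was -0.08 ± 0.06 (SE), adjusted p = 0.274. Also lower in active males were mt-Nd4l (log2 fold -0.49) and mt-Atp8 (-0.41), both in the uncertain low set. All 3 turned above 0 with the index as covariate, to 0.17, 0.26 and 0.23. The shared-sequence gene mt-Co2 had 5893, 6004 and 6977 in active males and 4249.6, 4745 and 5136 in active females (log2 fold 0.40 ± 0.05 (SE), adjusted p = 5.06e-08), mt-Co3 had a log2 fold of 0.33, mt-Nd3 of 0.26 and mt-Atp6 of 0.17. For mt-Nd1, mt-Nd2 and mt-Nd4 the values were 0.17, 0.17 and 0.23 in the active period and 0.26, 0.39 and 0.35 in the inactive one.

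Genes that serve the chain were read from lists, beside 30.1% of all genes called higher and 30.5% lower in males in the active period and 27.9% and 27.8% in the inactive one. Of 14 complex I assembly factors 13 were higher in males in each period, among them Ecsit with 1887, 2199.8 and 2782 in active males and 1201, 1316 and 1467 in active females (log2 fold 0.79 ± 0.07 (SE), adjusted p = 5.51e-11), Nubpl (0.79) and Ndufaf1 (0.47). Of 10 factors for complexes II and III, 7 were higher in each period. Sdhaf1, which helps build complex II, had 310, 338 and 457 in active males and 131, 152 and 181 in active females (log2 fold 1.20 ± 0.12 (SE), adjusted p = 3.17e-10), more than any complex II subunit, and Sdhaf4 and Ttc19 had log2 folds of 0.65 and 0.19. Of 17 tested factors for complex IV 11 were higher and 1 lower in each period, with Coa6, a copper factor, at 0.80, Cox15, of heme a synthesis, at 0.36 and Coa3 at 0.48. Of 4 for complex V 3 were higher in each period, and Atpaf1 was lower in active than in inactive males (798, 873 and 937 against 978, 1024 and 1196, without overlap, log2 fold -0.26 ± 0.06 (SE), adjusted p = 0.00553). Under equal totals, higher and lower calls for complex I factors were 8 and 2 in the active and 8 and 1 in the inactive period, for complexes II and III 3 and 1, and 1 and 2, for complex IV 6 and 3, and 3 and 3, and for complex V 0 and 1 in each. Beside them stand 2635 higher and 8821 lower of all 17333 genes in the active period, and 2051 and 9054 in the inactive one. Ttc19 turned to -0.09 in the active period, and Cox15 was not called there (0.08, adjusted p = 0.139, limma). For the period in males these lists had 1, 1, 2 and 0 genes called higher and 0, 0, 0 and 1 lower, beside 8.43% and 6.95% of all genes.

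The tricarboxylic acid cycle, which feeds NADH and succinate to the chain, had 12 of 13 genes higher and 1 lower in active males than in active females, and 12 higher and 0 lower in the inactive period. Beside these counts and those of the carriers below stand 30.1% of all genes higher and 30.5% lower, and 27.9% and 27.8%. Suclg1, a succinyl-CoA ligase subunit, had 12270.1, 14141 and 15937 in active males and 8234, 8602 and 9303 in active females (log2 fold 0.69 ± 0.05 (SE), adjusted p = 1.72e-12), and Suclg2 and Idh3g had log2 folds of 0.51 and 0.56. Of 14 electron carriers and their helpers, 13 were higher and 1 lower in the active period, and 12 and 0 in the inactive one. The largest was Cycs, with 14839.7, 16545 and 18636 in active males and 7703, 8444 and 9219.7 in active females (log2 fold 0.97 ± 0.06 (SE), adjusted p = 2.78e-15). Etfa and Etfdh, which pass electrons from fatty acid oxidation to ubiquinone, had log2 folds of 0.61 and 0.54. Under equal totals the cycle had 7 higher and 2 lower in the active and 6 and 1 in the inactive period, and the carriers 12 and 1, and 7 and 0, where 23.0% and 18.5% of all called genes were higher.

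Regulators of the mitochondrial genome and of biogenesis were counted against the same shares of all genes. Tfam, which packages and transcribes mitochondrial DNA, had 2173, 2393 and 2634 in active males and 1673, 1752 and 1843 in active females (log2 fold 0.44 ± 0.05 (SE), adjusted p = 6.78e-09), Lrpprc, which stabilizes mitochondrial messengers, had 0.20 and Fastkd2 0.34. In that list of 16 tested genes 8 were higher in the active and 10 in the inactive period, and 0 were lower. Under equal totals 2 were higher and 7 lower, and 2 and 8. Of all 17333 genes, equal totals called 2635 higher and 8821 lower in the active period, and 2051 and 9054 in the inactive one. Lrpprc then turned to -0.08 in the active period, and Fastkd2 was not called there (0.07, adjusted p = 0.344, limma). Among 9 biogenesis regulators 2 were higher and 4 lower in active males than in active females, a split near that of all genes (30.1% and 30.5%), and 0 and 7 under equal totals. Ppargc1a, the coactivator of mitochondrial biogenesis, had 2279.7, 2466 and 2881 in active males and 3857, 3921 and 4886 in active females, without overlap (log2 fold -0.70 ± 0.06 (SE), adjusted p = 2e-11). Esrra, a nuclear receptor that it works with, had 2169, 2446 and 2549 and 1775, 1832 and 2127 (log2 fold 0.33 ± 0.06 (SE), adjusted p = 3.71e-05), and Gabpb1, part of the ETS factor GABP (also called NRF2), 524, 559 and 644 and 594, 651 and 827 (log2 fold -0.26 ± 0.09 (SE), adjusted p = 0.0125). Under equal totals Esrra was not called in the active period (0.06, adjusted p = 0.422, limma). In the inactive period it was then called lower in males (-0.15, adjusted p = 0.0302, limma).

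What nuclear members share beyond their names could be read in their promoters, the 300 bases from 250 before to 50 after each start in RefSeq on GRCm38.p6. Of 83 members 67 matched, with 72 windows. The letters CGCATGCG, the core of the NRF1 site, stood on either strand in 12.5% of member windows and in 1.9% of all 32851 windows, and CCGGAAG, the core bound by ETS factors such as GABP, in 22.2% and 8.9%. AAGATGG, the core for YY1, stood in 15.3% and 6.3%. For other motifs the shares were close, at 38.9% and 35.7% for GGGCGG (SP1), 9.7% and 7.2% for CACGTG (the E-box of the clock factors) and 1.4% and 0.9% for TTATGTAA (a D-box). Only in 1 member window, that of Ndufs3, did matches of different motifs overlap. The NRF1 core was found for Atp5g2, Atp5j, Atp5k, Atp5l, Cox6a1, Ndufa8, Ndufa11, Uqcr11 and Uqcrc1. It was in 5 of the 29 matched members called higher in active males and in 4 of the 38 that were not, and the ETS core in 7 of 29 and 9 of 38. A match is a run of letters and no evidence that a factor binds there.

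The windows of 4 members are printed, 3 that hold the NRF1 core near their start and 1 that holds none of the 6 motifs although its period change differed between the sexes. Capitals mark the NRF1 core and, in Uqcr11, the ETS core. They lie at chr2:36049289-36049588 (Ndufa8, minus strand), chr10:80406772-80407071 (Uqcr11, minus), chr15:102670998-102671297 (Atp5g2, minus) and chr7:97399753-97400052 (Ndufc2, plus).
Ndufa8: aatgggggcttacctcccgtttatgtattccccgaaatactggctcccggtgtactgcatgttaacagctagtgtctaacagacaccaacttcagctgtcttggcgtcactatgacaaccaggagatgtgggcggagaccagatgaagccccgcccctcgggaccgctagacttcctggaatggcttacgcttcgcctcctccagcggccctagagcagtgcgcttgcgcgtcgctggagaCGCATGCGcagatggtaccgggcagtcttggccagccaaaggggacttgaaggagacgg
Uqcr11: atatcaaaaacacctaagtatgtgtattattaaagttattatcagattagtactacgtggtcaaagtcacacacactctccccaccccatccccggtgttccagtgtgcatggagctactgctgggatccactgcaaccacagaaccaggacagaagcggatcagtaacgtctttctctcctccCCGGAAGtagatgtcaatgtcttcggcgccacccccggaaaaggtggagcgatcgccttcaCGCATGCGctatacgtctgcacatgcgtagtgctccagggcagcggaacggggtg
Atp5g2: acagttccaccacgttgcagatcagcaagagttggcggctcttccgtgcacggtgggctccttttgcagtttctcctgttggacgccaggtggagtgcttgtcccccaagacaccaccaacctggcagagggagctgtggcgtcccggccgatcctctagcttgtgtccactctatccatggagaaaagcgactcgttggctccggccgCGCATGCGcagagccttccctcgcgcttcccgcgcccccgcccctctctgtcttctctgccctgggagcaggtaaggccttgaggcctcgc
Ndufc2: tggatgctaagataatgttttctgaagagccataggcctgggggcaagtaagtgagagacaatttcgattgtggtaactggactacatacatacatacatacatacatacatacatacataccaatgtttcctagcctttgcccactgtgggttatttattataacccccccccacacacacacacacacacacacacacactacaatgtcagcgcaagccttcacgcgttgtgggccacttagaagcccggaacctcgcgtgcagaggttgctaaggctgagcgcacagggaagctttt
Of these, Ndufa8, Uqcr11 and Atp5g2 were called higher in active than in inactive males (log2 folds 0.29, 0.35 and 0.25), and Ndufc2 was not (0.15, adjusted p = 0.056).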

How the data were processed

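Gene expression was measured by poly A RNA sequencing of 24 mouse kidney libraries. The deposited signal is gene counts that the authors divided by 1 size factor per library, judged from the values. The submitters' processing notes list GRCm39, DESeq2 1.28.1, featureCounts, Subread 2.0.6 and Trim Galore 0.6.10. Settings, strand mode and the handling of reads with several placements were not stated in the sources used here. Symbols, exon lengths and transcripts came from GENCODE annotation on GRCm38, and promoters from RefSeq.

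On the log2 scale, with a pseudocount of 1, 17333 genes with a mean of at least 10 entered 1 limma fit (version 3.58.1, R 4.3.3) over all libraries (4 group means, trended robust prior). P-values were adjusted per contrast over all genes by Benjamini and Hochberg, with calls at an adjusted p under 0.05. Log2 folds are on that scale and are slightly understated for low genes. Whole reads were recovered from the steps between values, with 100% whole within 0.05, so edgeR 4.0.16 and DESeq2 1.42.0 could be run as alternatives. edgeR called 2673, 2642, 537, 10432 and 9622 genes for the period in males, the period in females, their difference, and sex in the active and in the inactive period. Shared sequence was found with blastn between transcripts of different genes, at 98% identity over at least 60 bases. The method was tested on simulated counts. Other alternatives were pseudocounts, filters, scalings, library weights, variance priors, subsets and left-out libraries.

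Named are all mitochondrial members, for each contrast and complex the 2 nuclear members with the smallest p, all members with tissue forms, nuclear members whose period change differed between the sexes, and up to 3 genes of each list. Beyond this rule Ndufs1, Ndufs3, Ndufs7, Ndufs8, Ndufv2, Sdha, Uqcrh, Atp5a1, Atp5j, Atp5k, Atp5l and Cox5b were named after their values were seen. Members and lists were chosen with earlier results of these data known.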

Additional observations from a re-analysis of the deposited data

Results flagged for a closer look

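Single libraries stood apart from the other 5 of their group for 11 of 212 groups of 6 tested with Dixon's rule, which by chance alone marks about 1 in 20. The values are normalized counts. Replicate 5 of the inactive females had mt-Nd4 at 463549 (group median 520284, the lowest), mt-Cytb at 952387 (group median 1060861, the lowest) and Ndufc2 at 2715 (group median 2950.1, the lowest). Replicate 4 of the inactive males had Sdhd at 9146 (group median 8325, the highest) and Atp5b at 94060.4 (group median 87133, the highest). Replicate 1 of the inactive males had Ndufa10 at 10006 (group median 9228, the highest). Replicate 2 of the active females had Sdhb at 9984 (group median 8874, the highest) and Atp5f1 at 20659.6 (group median 19096, the highest). Replicate 2 of the inactive females had Atp5e at 3314 (group median 2887, the highest) and Cox7b at 9092 (group median 8399.8, the highest). Replicate 2 of the active males, which also has the highest short-minus-long index, had Cox7a2l at 5009.8 (group median 4101, the highest).

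The period change differed between males and females for Cyc1, by 0.35 on the log2 scale, for Atp5g2, by 0.39, and for Ndufc2, by 0.29, each by the test of the difference itself with limma. In all 3 the male change was positive and the female change negative. All 3 missed the threshold once the short-minus-long index was a covariate.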

How the results depend on the processing

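Male-minus-female values depend on the scaling, and counts of nuclear members called depend on how the length-related spread of the libraries is treated. The cause was not tested. Of 107 called pairs of a named member and a contrast, 19 kept direction and call under all alternatives, 36 turned in direction under at least 1, and under DESeq2 and both other pseudocounts all 107 were kept. Depth limited Cox4i2, Cox6a2 and Cox8b, with means under 33 normalized counts.

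Nuclear members called for the period in males (35) numbered 16 with only the groups compared, 23 with a plain variance prior and 2 with the index. In females (0) they numbered 3 with equal totals, 5 with equal totals outside the mitochondrial genome, 2 with library weights and 1 with upper-quartile scaling, all lower in active females, and 11 higher with the index. For the difference (3) they numbered 5 with TMM, edgeR or upper-quartile scaling, 8 with equal totals outside the mitochondrial genome, 10 with DESeq2 or library weights, 11 with equal totals, and 0 with a plain prior or the index. For sex in the active period (77) they numbered 51 with equal totals outside the mitochondrial genome and 13 with the index, and in the inactive period (69) 26 with equal totals, 28 with equal totals outside the mitochondrial genome and 32 with the index. Mitochondrial members called for the period in males (6) numbered 10 with equal totals, 12 with equal totals outside the mitochondrial genome and 2 with the index, and for the difference 1 with DESeq2. For sex they numbered 7 with equal totals, 7 with upper-quartile scaling and 5 with the index in the active period (12), and 4 with equal totals of either kind in the inactive period (10).

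Leaving out 1 library at a time, nuclear calls ran from 18 to 63 for the period in males, 0 to 1 in females, 2 to 18 for the difference, and 75 to 78 and 62 to 73 for sex in the active and inactive period. Mitochondrial calls ran from 3 to 9, 0 to 0, 0 to 1, 11 to 13 and 10 to 10 in the same order. Median sums ran, in M (mega), from 0.738 to 0.748, 0.658 to 0.686, 0.54 to 0.542 and 0.529 to 0.548 for nuclear and from 5.181 to 5.318, 5.619 to 5.827, 4.828 to 4.959 and 4.962 to 5.033 for mitochondrial members in active males, inactive males, active females and inactive females.

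The medians of the nuclear sums moved to 0.623 M in inactive males, 0.602 in active females and 0.604 in inactive females with equal totals, to 0.661 in active males, 0.622 in inactive males, 0.606 in active females and 0.612 in inactive females with equal totals outside the mitochondrial genome, and to 0.56 in inactive females with upper-quartile scaling. Those of the mitochondrial sums moved to 4.774 in active males, 5.349 in active females and 5.629 in inactive females with equal totals, to 4.695, 5.378 and 5.7 with equal totals outside the mitochondrial genome, and to 5.235 in inactive females with upper-quartile scaling.

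Log2 folds of called members that changed sign in the active period were, with equal totals, mt-Nd1 -0.11, mt-Nd2 -0.11, mt-Nd3 -0.017, mt-Nd4 -0.041, mt-Cytb -0.099, mt-Atp6 -0.10, Uqcrc2 -0.079, Cox7a2l -0.030, Atp5s -0.088 and Cox7b -0.083. With equal totals outside the mitochondrial genome they were mt-Nd1 -0.14, mt-Nd2 -0.14, mt-Nd3 -0.054, mt-Nd4 -0.079, mt-Cytb -0.14, mt-Atp6 -0.14, Uqcrc2 -0.12, Cox7a2l -0.068, Atp5s -0.12 and Cox7b -0.12. With the index they were mt-Nd4l 0.26, mt-Co1 0.17, mt-Atp8 0.23, Ndufa5 -0.14, Uqcr11 -0.097, Cox8a -0.006, Atp5g1 -0.27, Cox7a2l -0.024, Ndufa11 -0.14, Atp5e -0.17, Cox7a2 -0.015, Cox7c -0.041, Cox4i1 -0.14, Cox6a1 -0.033, Cox6b1 -0.072 and Cox7b -0.26. In the inactive period they were mt-Nd1 -0.024, mt-Cytb -0.014, Uqcr11 -0.068, Uqcrc2 -0.017, Cox7a2l -0.15, Atp5s -0.058, Cox4i1 -0.065 and Cox7b -0.13 with equal totals, mt-Nd1 -0.041, mt-Nd5 -0.011, mt-Cytb -0.031, mt-Atp6 -0.012, Uqcr11 -0.085, Uqcrc2 -0.034, Cox7a2l -0.17, Atp5s -0.075, Cox4i1 -0.083 and Cox7b -0.14 with equal totals outside the mitochondrial genome, and Uqcr11 -0.21, Atp5d -0.001, Cox7a2l -0.023, Cox4i1 -0.065, Cox6a1 -0.004 and Cox7b -0.11 with the index.

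The numbers in the titles, each carried by 1 male and 1 female library within a period, are not said to pair them, and the correlation of same-numbered deviations ran from -0.10 to 0.12 over 12 numbers, with 5 libraries best matched by their own number. With that number as a replicate block, 13 nuclear members were called for the difference, against 3 without it. No paired analysis was possible for the period contrasts because no number occurs in both periods.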

Other observations

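Rows that the name rule left out still carried signal in some cases. Ndufb1-ps, whose name calls it a pseudogene and whose annotation is a bidirectional promoter RNA, had a mean of 1695 normalized counts over the 24 libraries. Among the 11 others left out as pseudogenes, Atp5l2-ps (11.7) and Cox6c2 (10.04) were the only means of 10 or more.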
